A study of Mus musculus with 2 samples.

Results

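The regions described here are the long stretches of mouse chromosomes 1 to 19 in which the optimal list of CTCF peaks had no summit. They are the intervals between successive summits of the optimal peak list, a list thresholded by the irreproducible discovery rate (IDR), that were 300 kb or longer and held no assembly gap over 50 kb. Of 66953 intervals, 896 met this rule. They covered 522 Mb, or 21.8% of the sequenced autosomes. The stretches were chosen by measured peak positions, so their length and lack of optimal peaks are given as a description. The absence of a listed peak is not a measured absence of CTCF, since the read depth is not given in the sources used here.

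The data were chromatin immunoprecipitation and sequencing (ChIP-seq) of CTCF in the midbrain of newborn mice (postnatal day 0) of strain B6NCrl. There was 1 group of 2 replicates, with no genotype, treatment or comparison group, and sex was not collected. Both replicates were recorded under the same biosample and donor, and differences between them may be technical. Peaks of CTCF carry no expression markers against which the tissue label could be checked, and whole midbrain mixes cell types.

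CTCF contacts DNA through an array of zinc fingers, which read a long motif that has a direction. It halts the cohesin ring as cohesin extrudes chromatin loops, and so marks many loop anchors and borders of topological domains. Loop anchors mostly carry motifs that point toward each other. Gene deserts are long regions without protein-coding genes, and tandem gene families are rows of related genes made by duplication.

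The sequences below show what could be found inside the stretches. The first 4 are those of the 10 strongest peaks inside stretches whose summit lay within 50 bp of a CTCF motif match. The weight matrix behind a match was 20 bp long and was learned from the strongest optimal peaks, with the consensus NNNCCACNAGNNGGCNNNNN, searched on both strands at a per-position p of 1e-05. The motif is in capitals on its own strand, 5′ to 3′, with 20 bases of GRCm38 sequence to each side. The peak inside Adgrl2, a latrophilin adhesion receptor gene, has its motif at chr3:148939657-148939676 on the minus strand. The peak beside Atp2b1, which encodes a plasma membrane calcium pump, has it at chr10:98914075-98914094 on the plus strand. The peak between Mki67 and Mgmt has it at chr7:136591120-136591139 on the plus strand, and the peak inside Csmd3 at chr15:48570124-48570143 on the plus strand. Their log2 matrix scores were 11.12, 11.16, 17.16 and 17.1, in this order. The lowest scores counted as a match were 10.65 with the matrix from odd autosomes and 10.84 with that from even ones. The Adgrl2 and Atp2b1 matches were close to these limits.
Adgrl2 peak: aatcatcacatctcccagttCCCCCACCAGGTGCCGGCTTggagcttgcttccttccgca
Atp2b1 peak: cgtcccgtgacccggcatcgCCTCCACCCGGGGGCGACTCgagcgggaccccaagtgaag
Mki67 to Mgmt peak: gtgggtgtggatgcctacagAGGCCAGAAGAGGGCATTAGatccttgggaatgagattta
Csmd3 peak: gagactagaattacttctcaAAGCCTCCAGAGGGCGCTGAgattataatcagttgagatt

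The next 5 sequences are the highest-scoring motif matches inside stretches with no peak of the pooled list within 100 bp. They are shown because a high-scoring motif was present and no pooled peak was listed. They lie at chr19:39098969-39098988 (minus strand) near Cyp2c65, at chr4:112669497-112669516 (minus) near Skint2, at chr4:147202076-147202095 (plus) near Zfp991, at chr12:114650622-114650641 (minus) in the immunoglobulin heavy chain region, and at chr4:41910382-41910401 (plus) near Gm21541. Their log2 matrix scores ran from 23.98 to 25.74.
Cyp2c65 site: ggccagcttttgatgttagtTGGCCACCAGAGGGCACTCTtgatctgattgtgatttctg
Skint2 site: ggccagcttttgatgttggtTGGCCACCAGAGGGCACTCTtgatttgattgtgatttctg
Zfp991 site: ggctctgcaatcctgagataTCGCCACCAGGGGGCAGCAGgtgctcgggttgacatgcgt
Heavy chain region site: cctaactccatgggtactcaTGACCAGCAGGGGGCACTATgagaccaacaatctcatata
Gm21541 site: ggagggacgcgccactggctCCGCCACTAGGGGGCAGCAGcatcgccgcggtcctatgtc
The 32 bases centred on the motif occurred 10 times in the assembly for the Skint2 site, 8 times for the Gm21541 site and 2 times for the Zfp991 site. They occurred 1 time for the Cyp2c65 and heavy chain region sites. The Cyp2c65 and Skint2 sequences, on different chromosomes, were the same at 58 of 60 bases. The list of replicate 2 had a peak within 100 bp of the Cyp2c65 site. Neither replicate list had one at the other 4 sites.

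Most intervals between successive summits were far shorter than the stretches. The median over all intervals was 13.2 kb and the mean 35.8 kb. Among stretches the shortest was 300.1 kb, the quartiles were 357, 450 and 634 kb, and the longest was 5178 kb. In all, 357 stretches were 500 kb or longer, 85 were 1 Mb or longer and 16 were 2 Mb or longer. Lengths were continuous across the threshold of the rule. The shortest members had 300.1 kb on chromosome 13, 300.6 kb on chromosome 1 and 300.6 kb on chromosome 2, and the longest intervals left out had 299.9 kb on chromosome 7, 299.8 kb on chromosome 18 and 299.4 kb on chromosome 4. A further 14 intervals were long enough but held an assembly gap.

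Stretches occurred on every autosome, from 14 on chromosome 19 to 78 on chromosome 1. They took up 10.98% of chromosome 11, 14.4% of chromosome 9 and 15.3% of chromosome 19, the 3 lowest shares. Chromosome 14 had the highest share with 26.5%, followed by chromosome 4 with 26.0%. Many stretches were neighbours, and 126 summits bounded a stretch on both sides. There were 107 runs of at least 2 stretches in a row and 17 runs of at least 3. The longest run by number had 5 stretches over 2434 kb, at chr1:140940507-143374693. Neighbouring stretches share a bounding summit and are not independent in that sense.

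The sequence of the stretches differed from that of the remaining autosomes in each of 4 measures that the rule did not use. Values are pooled over the autosomes, and each SD is the spread of the values of single autosomes. GC content was 38.3% ± 0.562 in stretches and 42.9% ± 0.886 elsewhere (SD over 19 autosomes), and it was lower in stretches on 19 of 19 autosomes. Repeat-masked bases made up 43.3% ± 2.72 of stretches and 30.7% ± 1.08 of the rest, higher in stretches on 19 of 19. Protein-coding genes started 3.73 ± 2.97 times per Mb in stretches and 10.06 ± 2.503 times per Mb elsewhere, and again all 19 autosomes had the same direction. Chromosome 18 had the lowest density in stretches, 0.342 starts per Mb, and chromosome 7 the highest, 10.6.

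The last measure stands in for how well short reads can be placed, since the read length is not given in the sources used here. Of 32-mers sampled every 500 bp, 74.6% ± 6.99 occurred once in the genome in stretches and 87.4% ± 1.51 elsewhere (SD over 19 autosomes). The share in stretches was lower on 19 of 19 autosomes, and it ran from 52.3% on chromosome 7 to 82.1% on chromosome 16. Each of the 4 differences had an adjusted p of 3.815e-06 by an exact two-sided sign-flip permutation test over the autosomes, with Benjamini-Hochberg adjustment over the 4 measures. That is the smallest p the test can give. Autosomes are blocks of 1 genome and not biological replicates. Most tests were chosen with earlier results of these data known, so the p describes only how the direction repeats over autosomes. A repeated sequence lowers the number of reads that can be placed, so the share of 32-mers found once is not independent of the rule. The part of this in the lack of optimal peaks was not tested.

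These measures moved with the distance between summits over the whole range and not only at 300 kb. GC content was 47.3% in intervals under 10 kb, 45.5% from 10 to 30 kb, 43.2% from 30 to 100 kb and 40.5% from 100 to 300 kb. It was 38.8% from 300 to 500 kb, 38.0% from 500 to 1000 kb and 38.1% in the 85 stretches of 1000 kb or more. Protein-coding starts followed a different course at the long end. They numbered 38.6 per Mb in intervals under 10 kb, 3.75 per Mb from 100 to 300 kb and 2.72 per Mb from 300 to 500 kb. They were then more frequent again, with 3.42 per Mb from 500 to 1000 kb and 5.69 per Mb in stretches of 1000 kb or more, where the SD over autosomes was 6.82. The 32-mers found once were 65.1% in that longest class, with an SD of 14.2.

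**Figure D1:**
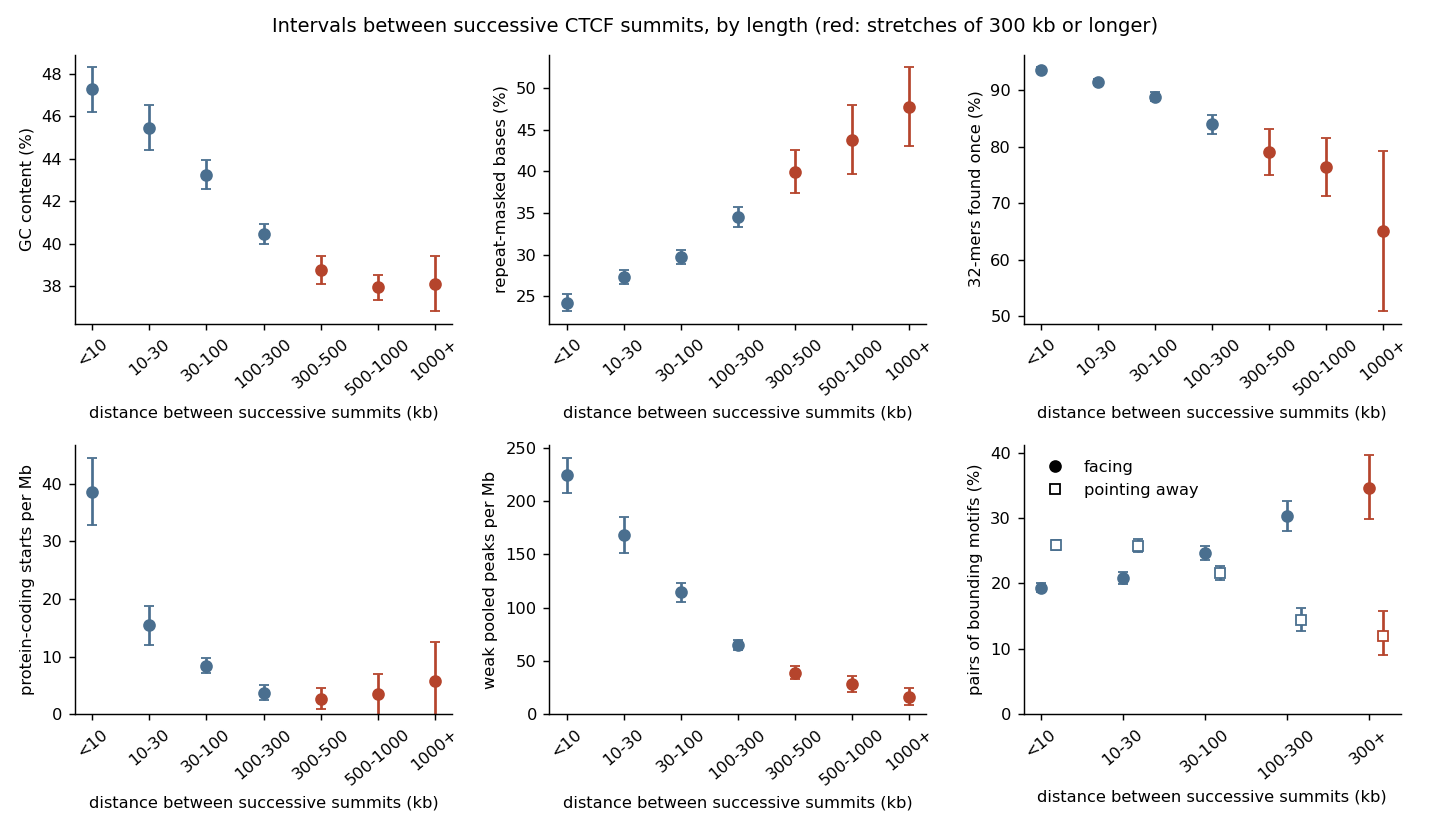
Measures of intervals between successive optimal CTCF summits by distance class in kb, with the stretches in red. Points are values over all intervals of a class, bars are SDs over 19 autosomes, and in the last panel bars are 95% Wilson intervals and the y axis gives the percent of summit pairs with a motif at both ends. GC content is 47.3% in the shortest and 38.1% in the longest class, weak pooled peaks number 224 and 16.4 per Mb, and facing motif pairs make up 19.3% under 10 kb and 34.6% in stretches.

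By gene content the stretches were of 3 kinds. No part of a protein-coding gene lay in 416 stretches (46.4%). A further 94 (10.5%) held part of such a gene but none of its annotated transcript starts. The other 386 (43.1%) held at least 1 protein-coding transcript start. Counting only the outermost start of each gene, 314 stretches held a start, and these starts are meant from here on. Genes were packed into few stretches, since 55 stretches with at least 10 starts held 1358 of 1946 starts (69.8%).

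Of all protein-coding genes on these chromosomes, 9.35% had their start inside a stretch (1946 of 20807), against the 21.8% of sequence that stretches covered. Other gene types differed from this. Unprocessed pseudogenes, which are copies made by duplication of genomic DNA, had 50.98% of their starts in stretches (912 of 1789). Processed pseudogenes, which are copies of mRNA, had 23.8% (2128 of 8924). Long intergenic noncoding RNAs had 11.7% (611 of 5209) and antisense RNAs 2.92% (85 of 2913). Among immunoglobulin variable segments 115 of 218 (52.8%) started in 3 stretches. None of 144 T cell receptor variable segments did, with a 95% Wilson interval up to 2.60%.

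Receptors for odours and pheromones made up a large part of the genes in stretches. The olfactory receptors of the nose had 650 of 1128 starts inside 25 stretches (57.6%, 95% Wilson interval 54.7 to 60.5%). The vomeronasal type 1 receptors, which bind pheromones, had 162 of 208 inside 10 stretches (77.9%, 71.8 to 83.0%). The vomeronasal type 2 receptors had 93 of 119 inside 16 stretches (78.2%, 69.9 to 84.6%). Together these 3 families gave 905 starts, which were 46.5% of the protein-coding starts in stretches, and they sat in 47 stretches. Without them, 1041 of 19352 protein-coding genes (5.38%) started in a stretch. Genes of a cluster share their stretch, so these intervals cover counting error only. The gene lists here and below were chosen with earlier results of these data known, so their shares are a description.

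Other tandem families were also found there. All 25 genes of the prolactin family, whose members are made largely in the pituitary and placenta, started in 3 stretches. The secretoglobins, which include the salivary androgen-binding proteins, had 29 of 34 in 1 stretch (85.3%). Of 80 listed cytochrome P450 genes, whose enzymes oxidise drugs, fatty acids and steroids, 45 started in 6 stretches (56.2%). Among them were Cyp2c29, Cyp2c37, Cyp2c38 and Cyp2c39 on chromosome 19. The list need not hold every cytochrome P450 gene, so this is a share of the list only. Skint and butyrophilin-like genes, of which Skint1 is needed for a skin T cell type, had 10 of 17 (58.8%). Killer cell lectin-like and C-type lectin genes had 26 of 56 (46.4%), including Klra1 and Klra10. Taste and Mas-related receptors had 33 of 70 (47.1%) and defensins, which are antimicrobial peptides, 24 of 64 (37.5%). Predicted genes with Gm numbers had 321 of 1226 (26.2%) in 88 stretches.

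Other tandem families had no start in a stretch. None of 20 interferon alpha and beta genes started in one (upper 95% Wilson bound 16.1%), and none of 34 major urinary protein and lipocalin genes (10.2%). Both bounds lie above the 9.35% of all protein-coding genes. Of the 34, 18 started in the long intervals left out for an assembly gap. Those intervals held 181 protein-coding starts in all, 114 of them of Gm-numbered genes. None of the 57 clustered protocadherins had its start in a stretch (6.31%). These are neural adhesion genes, and CTCF is known to bind many of their promoters. Zinc finger genes with Zfp names had 27 of 385 (7.01%), keratins and keratin-associated proteins 7 of 113 (6.19%), and serpins 6 of 60. The 95% Wilson intervals of these 3 lists included the 9.35% of all protein-coding genes.

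No start in a stretch was found in several lists of housekeeping and patterning genes. There was none among 78 cytosolic ribosomal protein genes (upper 95% Wilson bound 4.69%), 75 mitochondrial ribosomal protein genes (4.87%) and 38 proteasome subunit genes (9.18%). There was also none among 39 Hox genes (8.97%), 59 Sox and Fox genes (6.11%) and 28 midbrain patterning genes (12.1%). The bound of the midbrain patterning list lies above the 9.35% of all protein-coding genes. Genes of a cluster, such as Hox genes and clustered protocadherins, are not independent, so a bound below 9.35% is no test of depletion. Of 20 genes of dopaminergic neurons, a main neuron type of the ventral midbrain, only Calb1 started in a stretch, and 1.2 kb of its 26.8 kb lay inside. Nr4a2, a transcription factor of these neurons, had part of its body in a stretch but not its start.

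**Figure D2:**
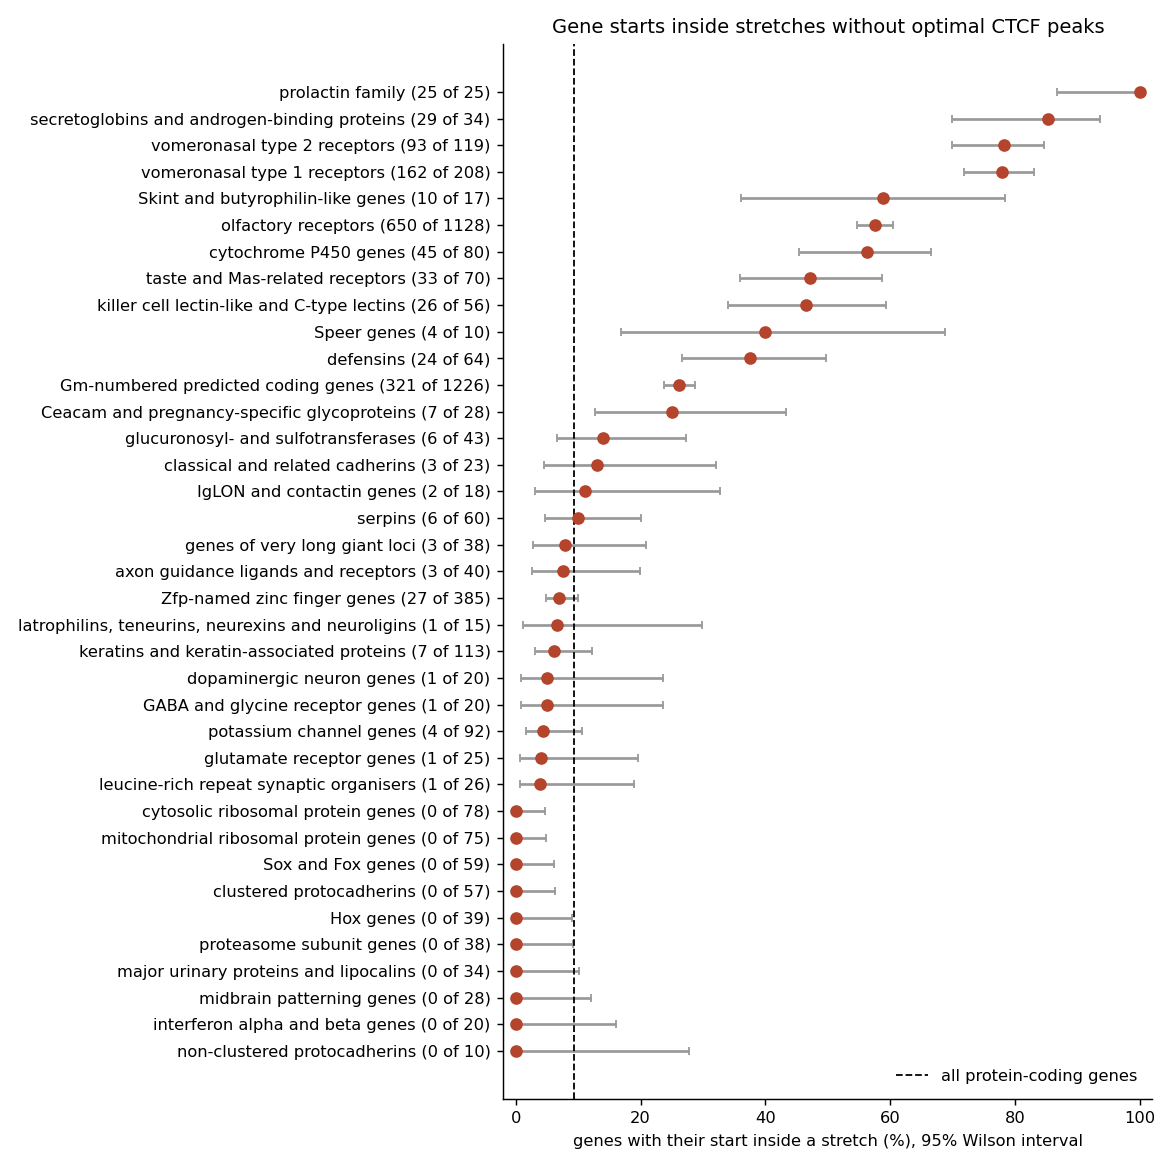
Share of each of 37 gene lists with the outermost gene start inside a stretch, in percent on the x axis, with 95% Wilson intervals that cover counting error only. The lists were chosen with earlier results of these data known. The dashed line is the share of all protein-coding genes, 9.35%, and the olfactory, vomeronasal, prolactin and secretoglobin lists lie to its right. Ribosomal, Hox and proteasome genes lie at 0, as do the clustered protocadherin, interferon and major urinary protein lists.

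For lists of neuronal adhesion and signalling genes, members with part of their body in a stretch were counted beside those with their start there. A gene that starts in a stretch also has part of its body there, so in any list the first count cannot be the smaller. Of all protein-coding genes, 10.4% had a base of their body in a stretch (2162 of 20807). Among 38 genes listed for their very long loci, 24 had part of their body in a stretch (63.2%) and 3 had their start there, Fhit, Lrp1b and Magi2. IgLON, contactin and contactin-associated (Cntnap) genes, which encode neural adhesion proteins, had 10 of 18 bodies. The 2 starts in this list were both of Cntnap genes, Cntnap5c and Cntnap3. Glutamate receptor genes had 7 of 25 bodies and GABA and glycine receptor genes 6 of 20, with 1 start each. The glutamate receptor start was that of Gria4, a gene with 0.6 of its 378.3 kb inside. Axon guidance genes had 9 of 40 bodies and 3 starts, all of class 3 semaphorins, Sema3a, Sema3d and Sema3e. A start inside can lie close to a bounding summit. Sema3d started at chr5:12383385, and its stretch ended at an optimal summit at chr5:12383473 with a signal of 276. Classical and related cadherins had 5 of 23 bodies and 3 starts, Cdh12, Cdh18 and Cdh19. Potassium channel genes had 8 of 92 bodies (8.70%), a share below that of all protein-coding genes, and 4 starts. Leucine-rich repeat synaptic organisers had 6 of 26 bodies, and latrophilins, teneurins, neurexins and neuroligins 5 of 15, with 1 start each. Non-clustered protocadherins had 4 of 10 bodies and no start. A long gene offers more bases to lie in a stretch, and these shares are not corrected for length. Of 541 protein-coding genes of 300 kb or more, whatever their function, 151 touched a stretch.

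The gene with the most bases inside was Lrp1b, which encodes a large lipoprotein receptor-related protein. Of its 2058 kb (chr2:40595246-42653624, minus strand), 1379 kb lay in 3 stretches, and the gene held 7 optimal peaks. Cntnap2, a neurexin-related adhesion protein, followed with 1195 of 2245 kb and 22 optimal peaks. Lingo2 had 1039 kb (83.4% of the gene), Csmd3 had 1003 kb (82.8%), Sgcz had 971 kb (85.3%) and Nkain2 had 969 kb (80.7%). Erbb4, the neuregulin receptor, had 929 kb (86.3%), and Nrg3, which encodes a neuregulin, had 739 kb (66.9%). Macrod2, Magi2, Lrrc4c, Dlg2, Malrd1, Cdh18 and Gpc5 made up the rest of the leading 15, with 694 to 903 kb inside. Malrd1 lay inside stretches over its whole length of 729 kb and held 1 optimal peak, the summit between 2 stretches.

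A total of 1830 protein-coding genes lay wholly inside 1 stretch. The longest were Skint5 (522 kb), Cpq (511 kb), Kcnh7 (491 kb), Skint6 (482 kb) and Gtdc1 (363 kb). Prkd1, Bank1, Chchd3, Mlip and Fshr followed with 308 to 216 kb. These genes differed in the weak peaks they held. Chchd3, a gene of mitochondrial cristae, had 32 and the potassium channel gene Kcnh7 had 21, while Skint5 and Skint6 had 1 each. The start of Chchd3, at chr6:33060260, lay close to the bounding summit at chr6:33060424. Short neural genes wholly inside were Gabrg1, Kcnj16, Kcna4, Cdh19 and Slitrk6, and no weak peak lay in the 6.6 kb of Slitrk6.

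The 10 longest stretches contained both gene clusters and regions with few or no protein-coding genes. The longest, chr7:7299740-12478232, held 55 protein-coding starts, mostly Vmn2r and Vmn1r receptors, and the Zscan4 genes of early embryos. The next, chr7:19956687-24081982, held 106, mostly Vmn1r receptors and Gm-numbered genes. Of their sampled 32-mers 28.4% and 14.4% occurred once in the genome. The stretch chr7:31208509-34123647 with 29 secretoglobin genes had 30.1%, chr5:93328251-95881139 with 27 genes, mostly predicted, had 7.69%, and chr12:21613985-24462261 with 2 genes had 9.88%. Another 3 of the 10 held no more than 1 protein-coding start and had 76.5 to 79.6% of 32-mers found once. These were chr11:12990667-16257565 between Cobl and Vstm2a with Pom121l12 alone, chr1:47950558-50831874 between Slc39a10 and Tmeff2, and chr13:86238252-88821276 between Cox7c and Edil3, the last 2 with no protein-coding start. The other 2 were chr17:17899418-20945396, with 35 starts, mostly of Vmn2r, Vmn1r and formyl peptide receptor genes, and the Skint stretch chr4:111961504-114296589. Although these 2 held gene clusters, 74.0% and 68.6% of their 32-mers occurred once.

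The pooled list, called on both replicates together, held many peaks that did not share an optimal summit, here called weak pooled peaks. Inside stretches there were 15338 of them, or 29.4 per Mb, against 113 per Mb elsewhere on chromosomes 1 to 19. The lists of single replicates gave nearly the same picture. Peaks away from optimal summits numbered 33.7 per Mb in stretches and 112 per Mb elsewhere for replicate 1, and 36.8 and 111 per Mb for replicate 2. Weak peaks come from the same libraries as the list that set the stretches, so no test was made. Their density was lower in each longer class of intervals, with 224 per Mb under 10 kb, 64.97 per Mb from 100 to 300 kb and 16.4 per Mb in stretches of 1000 kb or more.

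Only 5 stretches had no weak peak, and the median stretch had 15. Per Mb the quartiles over stretches were 20.7, 29.4 and 44.0. The highest density, 133.7 per Mb, was that of chr13:44382006-44733579, which holds Jarid2, an accessory gene of Polycomb repressive complexes, with 47 weak peaks. Next were the stretch between Mki67 and Mgmt (chr7:136490930-136808176, 122.9 per Mb), that of the corepressor gene Tle4 (chr19:14449962-15035759, 121.2 per Mb), that of the kinase gene Sgk1 (chr10:21685660-21991449, 117.7 per Mb), and that with parts of Slc9a9 and Chst2 (chr9:94927298-95405604, 117.1 per Mb). In these 5 stretches 89.97 to 95.91% of sampled 32-mers occurred once. The 5 without weak peaks had from 2.23 to 57.8%. They included chr7:14593263-15859859, 1267 kb with 6 Obox homeobox genes of oocytes, and chr14:5070785-5879332 with 17 Gm-numbered genes.

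Over all stretches, weak peaks were denser where more of the sequence occurred once. The 24 stretches with under 30% of 32-mers found once had 3.10 weak peaks per Mb. Density was 8.69 per Mb in the 53 stretches with 30 to 60%, 11.8 in the 46 with 60 to 70%, and 24.3 in the 275 with 70 to 80%. It was 37.4 per Mb in the 437 stretches with 80 to 90% and 70.7 in the 61 with more. Starts of protein-coding genes did not follow one course over these classes. They numbered 12.99 per Mb below 30%, 10.03 from 30 to 60%, 14.71 from 60 to 70%, 3.71 from 70 to 80%, 0.620 from 80 to 90% and 0.670 above. The class from 70 to 80% held the most starts, 647 of 1946. Shorter intervals of 100 to 300 kb had more weak peaks in each of these 6 classes, for example 59.8 per Mb from 80 to 90% and 13.5 per Mb below 30%. Restricting the count to the 773 stretches with at least 70% of 32-mers found once gave 34.1 weak peaks per Mb and 1.88 protein-coding starts per Mb, in place of 29.4 and 3.73. This limit was set after the data were seen.

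**Figure D3:**
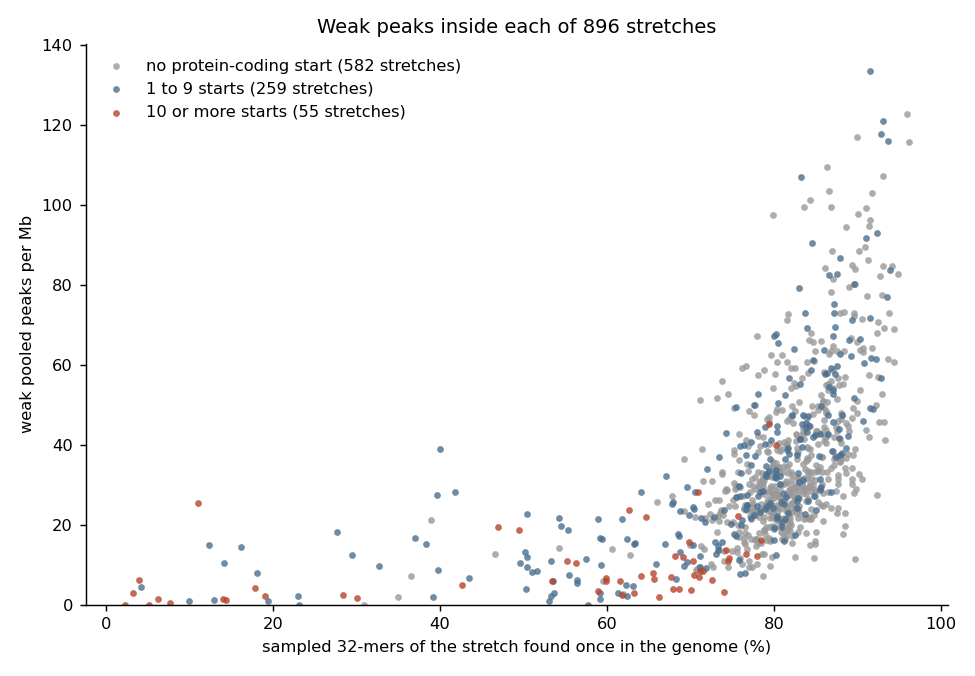
Each point is 1 of 896 stretches, with the percent of its sampled 32-mers found once in the genome on the x axis and its weak pooled peaks per Mb on the y axis. Colours give the number of outermost protein-coding starts, and the densest stretch with at least 10 starts has 45.3 weak peaks per Mb while the densest of all has 133.7.

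Weak peaks inside stretches were weaker as a group than those elsewhere. The median signal, in the authors' own scale whose unit is not stated, was 8.24 inside and 9.03 elsewhere, against 76.2 for optimal peaks. A signal of 20 or more was reached by 3.83% inside and 6.12% elsewhere. A CTCF motif lay within 50 bp of 1604 weak summits inside (10.5%, 95% Wilson interval 9.983 to 10.95%), and elsewhere of 13.4% (28503 of 212593). Among optimal peaks that share was 63.5%, and around positions 5 kb beside the weak summits it was 0.391% inside and 1.27% elsewhere. Both replicate lists had a peak within 100 bp for 2732 weak peaks inside (17.8%, 17.2 to 18.4%), and elsewhere for 24.2% (51524 of 212593). After a shift of 5 kb that share was 0.267% inside and 1.77% elsewhere.

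Compared at like signal, these differences were smaller in percentage points or had the other direction. At signals of 10 to 12 a motif was found at 14.2% of weak peaks inside (12.6 to 16.1%) and 14.6% elsewhere (14.16 to 14.98%). At 16 to 24 it was found at 38.7% inside (35.6 to 41.9%) and 33.9% elsewhere (33.3 to 34.6%). A counterpart in both replicate lists was found for 86.6% and 81.9% of peaks at these signals. At the lowest signals the motif share stayed lower inside. It was 3.52% and 4.77% below 8, and 6.85% and 8.26% from 8 to 10. These classes held 6795 and 4437 of the 15338 weak peaks inside. Peaks inside stretches had low signals more often, and no test of these shares was made.

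**Figure D4:**
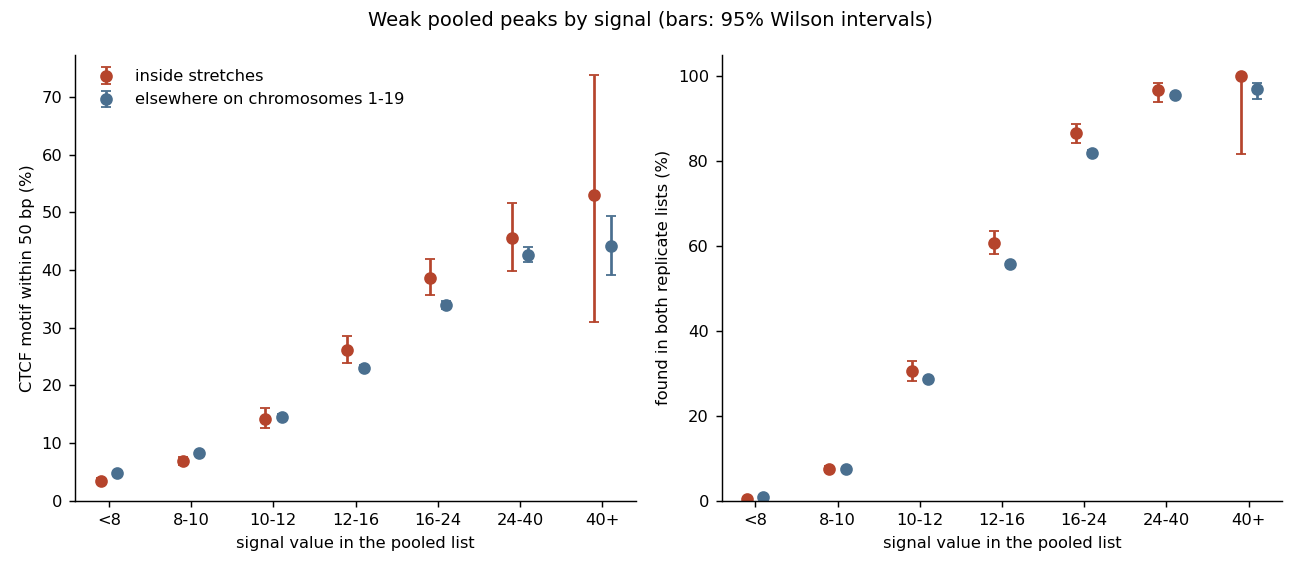
Weak pooled peaks inside stretches (red) and elsewhere on chromosomes 1 to 19 (blue) by classes of deposited signal on the x axis. The y axes give the percent with a CTCF motif within 50 bp of the summit (left) and the percent with a peak in both replicate lists (right), with 95% Wilson intervals, and both shares rise with signal, from 3.52% to 38.7% for motifs inside stretches between signals below 8 and 16 to 24.

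At least 1 weak peak with a counterpart in both replicate lists lay in 789 of 896 stretches. With a motif required as well, there were 797 such peaks in 497 stretches. The conservative list, also thresholded by IDR, placed 245 of its peaks in 192 stretches, with a median signal of 26.3 and a motif at 106 (43.3%). These stretches lacked an optimal peak but not a peak that passed the other threshold. Weak peaks lay throughout the stretches. Of all weak peaks inside, 177 lay within 1 kb and 1073 within 10 kb of a bounding summit, and 46.6% lay nearer to the midpoint of the stretch than to its end.

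The 10 strongest weak peaks inside had signals from 42.55 to 100.1. The strongest, inside the cation channel gene Trpv3 on chromosome 11, lay 0.2 kb from the summit that bounds its stretch and had no motif within 50 bp. Its signals in the replicate lists were 58.6 and 41.1. The second lay in a stretch without protein-coding genes (chr15:62137381-62566405), 474849 bp from Myc, with 53.3 in the pooled list and 33.4 and 18.9 in the replicate lists. Another 3 lay close to gene starts. Their summits were 164 bp from the start of the syndecan gene Sdc2 (49.3), 333 bp from that of Atp2b1 (46.3) and 30 bp from that of the centromere protein gene Cenpw (45.5). The Adgrl2 peak printed above had 47.0 in the pooled list but differed between replicates, with 36.4 and 9.59. The Csmd3 peak had 42.55, with 17.1 and 24.5. All 10 had a counterpart in both replicate lists, and 7 were in the conservative list.

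Gene starts inside stretches seldom had a weak peak. Outside the stretches, 56.7% of protein-coding starts had one within 1 kb (10690 of 18861). Inside, 158 of 1946 did (8.12%, 6.99 to 9.42%). For olfactory and vomeronasal receptors inside it was 15 of 905 (1.66%) and for the other genes inside 143 of 1041 (13.7%). Starts outside that had no optimal peak within 1 kb had a weak one in 54.8%. GC content and uniquely placed sequence are lower in stretches too, and their part in this difference was not tested.

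Motif matches were rarer in stretches, and fewer of them had a weak peak. Away from optimal summits, matches at p 1e-05 numbered 38.4 per Mb in stretches and 74.2 per Mb elsewhere. Of these, 8.13% and 20.8% had a weak peak within 100 bp. The difference was also present where the 32 bases around the motif occurred once in the genome, with 13.1% (12.4 to 13.7%) and 22.9% (22.7 to 23.2%). At p 1e-07, the strictest level, 72.6% of such single-copy matches elsewhere had a weak peak (1087 of 1498). In stretches 70 of 163 did (42.9%, 35.6 to 50.6%). A match is a description of letters and not a binding site.

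**Figure D5:**
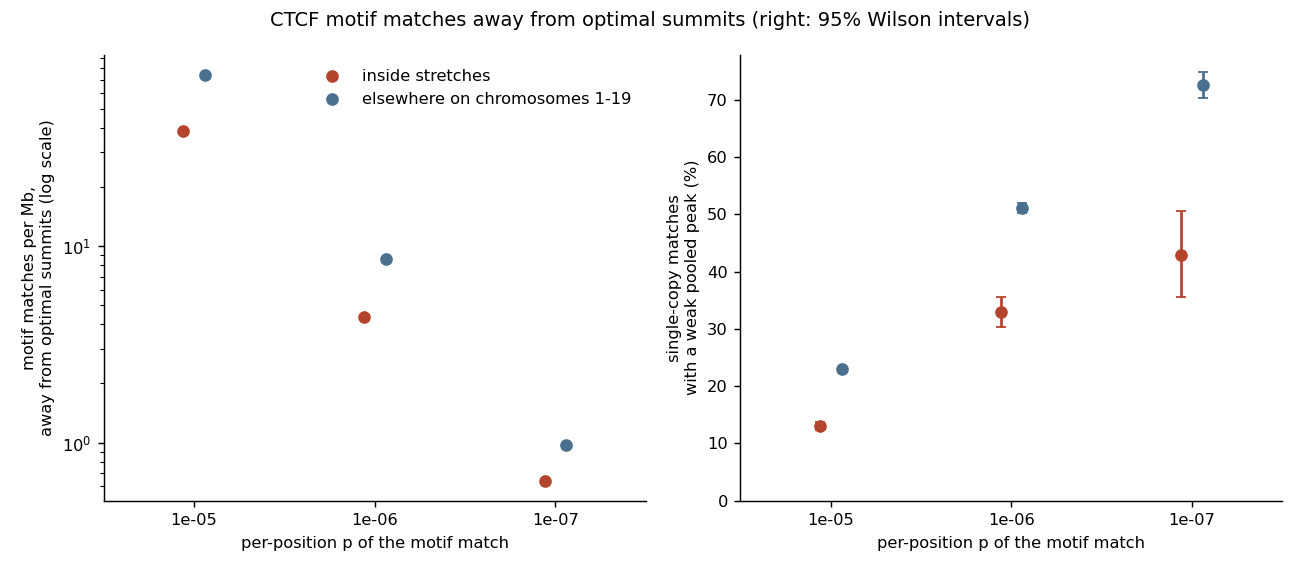
CTCF motif matches away from optimal summits at 3 levels of per-position p on the x axis, inside stretches (red) and elsewhere (blue). The left panel gives matches per Mb on a log axis, and the right panel the percent of matches in single-copy sequence with a weak pooled peak within 100 bp, with 95% Wilson intervals, such as 42.9% in stretches and 72.6% elsewhere at 1e-07.

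The summits at the ends of stretches were close to other optimal summits in median signal and in motif content. The 1666 bounding summits had a median signal of 70.98 (quartiles 37.8 and 183), and the other optimal summits 76.4 (38.5 and 213). In the replicate lists the medians were 40.3 and 44.2 for replicate 1 and 30.8 and 33.6 for replicate 2. A motif lay at 63.4% of bounding summits (61.1 to 65.7%) and at 63.5% of the others. Fewer bounding summits were at promoters, with 6.18% within 1 kb of a protein-coding start against 12.3% of the others. Some clusters were bounded by strong peaks at both ends, such as the olfactory receptor stretch chr10:129026216-130093038 with signals of 290 and 317. The longest stretch on chromosome 7 had 53.9 and 27.9.

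The direction of the motifs at both ends was a further feature that the rule did not use. Among intervals under 300 kb with a motif at both summits, 21.5% had facing motifs (5925 of 27547). Among stretches it was 127 of 367 (34.6%, 29.9 to 39.6%). The share by length was 19.3% under 10 kb, 20.8% from 10 to 30 kb, 24.6% from 30 to 100 kb and 30.3% from 100 to 300 kb (28.0 to 32.6%). The interval of the stretches overlapped that of the 100 to 300 kb class. Motifs pointing away from each other made up 11.99% in stretches (9.05 to 15.7%) and 24.3% in the shorter intervals, while 53.4% and 54.2% pointed the same way. From 100 to 300 kb the share pointing away was 14.4% (12.7 to 16.2%), and this interval also overlapped that of the stretches. Pairs share summits and are not independent, so no test was made. Bounding summits were paired by position, with no measurement of loops.

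Stretches set from other lists covered most of the same sequence. The highest-signal peaks of replicate 2 alone gave 905 stretches and those of replicate 1 alone gave 911. Of the length of the stretches described here, 91.2% and 93.4% were also in these. The conservative list gave 928, which held 93.5% of that length.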

How the data were processed

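CTCF ChIP-seq of postnatal day 0 midbrain was deposited as 5 narrowPeak lists on assembly mm10, per the labels and the deposited text notes: the optimal and conservative IDR lists, a list of both replicates pooled (300000 peaks), and 1 list for each of the 2 replicates (300000 peaks each). Column 7 holds the authors' signal value, whose scale was not stated. For aligner, peak caller, IDR threshold and read depth the entry is: not given in the sources used here. No value therefore carries a depth. Lists that reach a fixed number of peaks include calls near noise.

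Summits were column 2 plus column 10. Gaps, GC and masking came from GRCm38.p6, the same build, and genes from GENCODE vM21. Coordinates are 1-based. A weak pooled peak is one whose summit is not an optimal summit, and replicate matches lie within 100 bp. The 20 bp matrix was learned from the 2000 strongest optimal peaks of odd autosomes and applied to even ones, and the reverse. The 32-mers were sampled every 500 bp and counted on both strands of the whole assembly, scaffolds included.

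Differences over the 19 autosomes were tested with an exact two-sided sign-flip permutation test, adjusted over 4 measures. Wilson intervals are at 95% and cover counting error only. Scripts were tested on simulated data (Python 3.11.15, numpy 2.4.6, pandas 2.3.3, scipy 1.17.1, numba 0.67.0). Named stretches, genes and peaks followed a rule: the 10 longest stretches, 3 on each side of the length threshold, the 5 with the most and 5 with the fewest weak peaks per Mb and the 5 with the most starts, the 15 genes with the most bases inside, the 10 longest genes wholly inside, up to 4 members of each of the 37 gene lists, the 10 strongest weak peaks and the 5 best unlisted motifs. Only some of these are printed. The members, gene lists and most tests were chosen with earlier results of these data known. Alternatives changed 1 choice at a time: the list, each replicate left out, the minimum length, the gap limit, motif and matching settings, k-mer length and the gene start used.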

Additional observations from a re-analysis of the deposited data

How the results depend on the processing

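No paired analysis was possible because there was 1 group and no comparison between groups of samples. The 4 sequence and gene measures kept their direction and an adjusted p of at most 3.052e-05 (exact two-sided sign-flip permutation test) under all alternatives run, and no result reversed. With a minimum of 500 kb, however, protein-coding starts per Mb were lower in stretches on 17 of 19 autosomes and higher on 2 (4.39 per Mb in stretches and 9.34 elsewhere). A minimum length of 200 kb gave 1726 stretches with 35.3 weak peaks per Mb, of which 18.6% were in both replicate lists. With 500 kb it was 357 stretches, 317 Mb, 23.3 per Mb and 16.7%. The share of weak peaks with a motif was 21.9% at a motif p of 1e-04, 3.10% at 1e-06 and 6.84% with a window of 20 bp. The share in both replicate lists was 13.5% within 50 bp and 22.4% within 250 bp. Stretches without any protein-coding transcript start were 56.9%, and those without a protein-coding gene body 46.4%. Stretches with at least 70% of 32-mers found once, an alternative chosen after seeing the data, had no such start in 64.4% and a motif at 9.75% of weak peaks. Counting every transcript start gave 8.31 starts per Mb in stretches in place of 3.73. Leaving out a replicate gave bounding summits a median signal of 31.3 to 41.2, read from single replicate lists whose signals run on another scale than the 70.98 of the pooled list. The unknown depth limits what a missing peak can show.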
